A study of Bos taurus with 30 samples.

Results

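Epithelial and stromal cells of the bovine endometrium, the lining of the uterus, were compared at 5 mM glucose in 6 of the 30 libraries of the series, 3 of each cell type. These 6 were chosen by their labels as the 5 mM groups of the glucose experiment, and the question was which genes separated the cell types. The cells were isolated from the uterus of cows that were not pregnant and had recently ovulated (early luteal phase), with no transgene or line, and were grown together in a microfluidic device under flow for 72 hours. Epithelial cells lay in the upper chamber and stromal cells in the lower, on either side of a porous membrane, and each cell type was lifted separately with trypsin before its RNA was sequenced. The study describes the epithelial preparation as predominantly pure and the stromal one as enriched. Both groups received 5 mM glucose, the level the study took as physiologic, and no insulin dose is named for either. The vehicle groups of the insulin experiment, 3 libraries of each cell type with 5 mM glucose and the acidic carrier without insulin, are used below as a second set of cultures. The study calls the 3 samples of a group biological replicates, but neither the cow behind each number nor a shared cow between cell types is given in the sources used here. The p-values therefore measure how far the difference between the cell types varied between the replicate numbers of these samples.

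The epithelium lines the uterine lumen and glands as a polarized sheet, held together by cadherin junctions, desmosomes and tight junctions, filled with keratin filaments, and attached to a basement membrane through laminins and integrins. It secretes the fluid that feeds and signals to an embryo before attachment. The stroma beneath consists of fibroblasts that lay down fibrillar collagens and proteoglycans and carry the position code of the uterus in HOX and other mesenchymal transcription factors. Both compartments talk through paracrine pairs, such as epithelial Indian hedgehog with its stromal receptors and targets, and stromal fibroblast growth factors with epithelial receptors.

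A library held 13493503 to 16392267 counted reads, so that a count of 0 allows up to 3 counts, or 0.183 to 0.222 CPM (the count scaled to a library total of 1000000), for counting error only. The libraries are named by their replicate number, and values for 3 libraries are given in the order of replicates 1, 2 and 3. Fold changes are log2 values of epithelial over stromal, with positive values for a higher level in epithelial cells. Adjusted p-values are from the quasi-likelihood F test of edgeR, with the replicate number as a block and adjustment by Benjamini and Hochberg over all genes tested. A gene was called where this adjusted p was under 0.05 and the log2 fold change beyond 0.1. The epithelial library of replicate 2 stood apart, with 1.65% of its reads on mitochondrially encoded genes against 10.6% to 14.4% in the other 5, and these reads are part of the total behind CPM.

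The 6 markers of the cell types had separate ranges in the 2 groups. KRT19 (ENSBTAG00000004905), a keratin of simple epithelia, had 1681, 4418 and 1844 CPM in the epithelial and 98.6, 1.01 and 4.70 CPM in the stromal libraries. KRT7 (ENSBTAG00000016165), another keratin of simple and glandular epithelium, had 1359, 2828 and 1081 CPM in the epithelial and 71.9, 0.251 and 0.671 CPM in the stromal libraries. KRT8 (ENSBTAG00000000836), which pairs with KRT18 in the filaments of simple epithelium, had 1273, 2985 and 672 CPM in the epithelial and 77.3, 146 and 11.6 CPM in the stromal libraries. The highest stromal value was that of replicate 1 for KRT19 and KRT7, and that of replicate 2 for KRT8. The log2 fold changes were 8.14 (SE 1.92) for KRT19, 9.58 (SE 2.32) for KRT7 and 4.52 (SE 0.52) for KRT8, with adjusted p-values of 0.0311, 0.0332 and 0.00548 in edgeR.

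On the stromal side, SPARC (ENSBTAG00000014835), a collagen-binding matrix glycoprotein, had 327, 126 and 128 CPM in the epithelial and 4579, 5835 and 5197 CPM in the stromal libraries. COL6A3 (ENSBTAG00000030190), a chain of the microfibrillar collagen VI, had 557, 223 and 348 CPM in the epithelial and 4215, 2615 and 4692 CPM in the stromal libraries. MMP2 (ENSBTAG00000019267), a gelatinase, had 464, 119 and 197 CPM in the epithelial and 3856, 2960.2 and 4207 CPM in the stromal libraries. All 3 stromal libraries lay well above all 3 epithelial libraries, and in the epithelial group replicate 1 was the highest for each gene. The log2 fold changes were -5.12 (SE 0.55), -3.63 (SE 0.41) and -4.26 (SE 0.50), with adjusted p-values of 0.00542, 0.00548 and 0.00554 in edgeR. Both labels were thus matched by their markers. In bulk RNA, fewer cells of a type and less RNA per cell cannot be told apart. Without replicate 2, KRT19 and KRT7 were not called, at log2 fold changes of 6.06 and 6.88, while the other 4 markers were called with any 1 replicate left out.

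**Figure D1:**
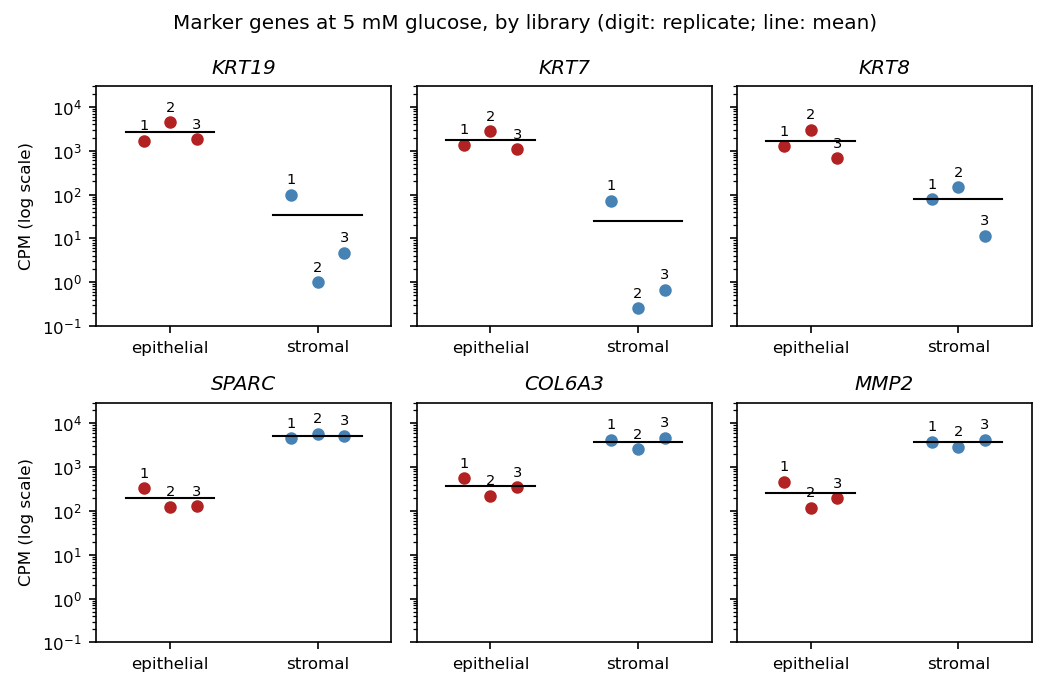
Level of the 6 marker genes in CPM on a log axis for each library, epithelial in red and stromal in blue, with the replicate number above each point and a line at the group mean. The groups do not overlap for any of the 6, and the stromal library of replicate 1 holds 98.6 CPM of KRT19 where the other stromal libraries hold 1.01 and 4.70.

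The partner keratin, the mesenchymal filament and the steroid receptors separated the cell types less. KRT18 (ENSBTAG00000001517), the partner of KRT8, had 695, 1788 and 444 CPM in the epithelial and 47.4, 176 and 57.3 CPM in the stromal libraries, with a log2 fold change of 3.17 (SE 0.38). VIM (ENSBTAG00000018463), the intermediate filament of mesenchymal cells, had 943, 1015 and 385 CPM in the epithelial and 2869, 2833 and 3535 CPM in the stromal libraries, and -2.30 (SE 0.51). Transcripts of VIM were thus present in every epithelial library, and the groups did not overlap. Without replicate 3, VIM was not called, at -1.73. PGR (ENSBTAG00000024648), the progesterone receptor, had 12.4, 19.0 and 23.2 CPM in the epithelial and 12.8, 13.0 and 40.9 CPM in the stromal libraries, with a log2 fold change of -0.33 (SE 0.41) and an adjusted p of 0.635 in edgeR. ESR1 (ENSBTAG00000007159), the estrogen receptor, had 51.4, 45.1 and 66.7 CPM in the epithelial and 19.2, 28.7 and 43.1 CPM in the stromal libraries, with 0.68 (SE 0.33) and an adjusted p of 0.211 in edgeR. Neither receptor passed the test, although the ESR1 groups did not overlap, and PGR turned to 0.063 without replicate 3.

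To see how much of each cell type's own transcripts appeared in the other, genes were chosen from the insulin vehicle libraries alone (called there, a log2 fold change of at least 4 and at least 20 CPM in the higher cell type). Of these, 317 were epithelial and 212 stromal. At 5 mM glucose, the 317 epithelial genes had in the stromal libraries a median level of 7.93%, 0.534% and 0.736% of their median in the epithelial libraries. The 212 stromal genes had 7.88%, 2.44% and 4.11% in the epithelial libraries. Both libraries of replicate 1 thus carried more of the other cell type's transcripts than those of replicates 2 and 3. Of the 317 genes, 237 reached 5% of the epithelial level in the stromal library of replicate 1, against 52 in replicate 2 and 53 in replicate 3. The part of this in the results was not tested.

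**Figure D2:**
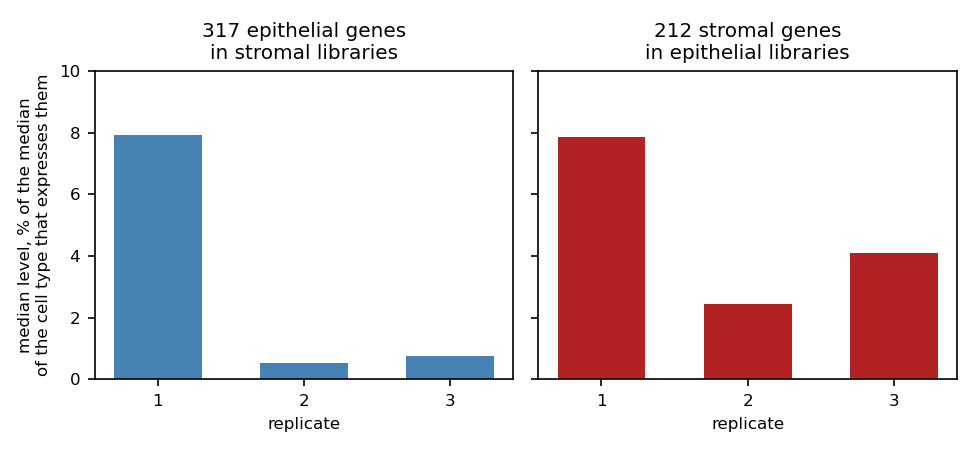
Median level of 317 epithelial genes in the stromal libraries (blue) and of 212 stromal genes in the epithelial libraries (red), as a percentage of the median in the cell type that expresses them, for each replicate at 5 mM glucose. The gene sets were chosen in the insulin vehicle libraries. Replicate 1 has the tallest bar in both panels, at 7.93% and 7.88%.

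KRT8 and KRT18 were among the 52 genes at or above 5% in the stromal library of replicate 2. There they stood at 11.5% and 25.3% of their epithelial medians, while KRT19 was at 1.01 CPM, CDH1 at 1.19 CPM and EPCAM at 0. In the insulin vehicle cultures the log2 fold changes of KRT8 and KRT18 were 8.20 and 7.78, against 4.52 and 3.17 at 5 mM glucose. In a joint fit of both experiments the difference was -4.09 for KRT8 (unadjusted p = 0.0646, adjusted p = 0.525 in edgeR) and -5.11 for KRT18 (unadjusted p = 0.0206, adjusted p = 0.435 in edgeR). Neither difference passed the adjusted test.

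Of 13760 protein-coding genes tested, 3019 (21.9%) were called between the cell types. Among them, 1522 (11.1%) were higher in epithelial and 1497 (10.9%) in stromal cells. The calls were large differences. The median absolute log2 fold change of a called gene was 3.44 and the smallest 1.09. A strongly separating gene was defined as one that was called, had an absolute log2 fold change of at least 2 and did not overlap between the groups in CPM. By this rule 2367 genes (17.2%) separated the cell types strongly, 1187 toward epithelial and 1180 toward stromal cells. The groups did not overlap for 6220 of the tested genes (45.2%), and the median log2 fold change of all tested genes was 0.0025. Without replicate 1, 3099 genes were called, of which 2571 were among the 3019. Without replicate 2, 3268 were called, with 2594 in common, and without replicate 3, 2190 were called, with 2063 in common. A further 394 genes differed by a log2 fold change of at least 2 without passing the test, 205 of them toward epithelial cells, and 225 of the 394 were called without replicate 1. With all 12 libraries of the glucose experiment in 1 fit, 5415 genes were called.

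**Figure D3:**
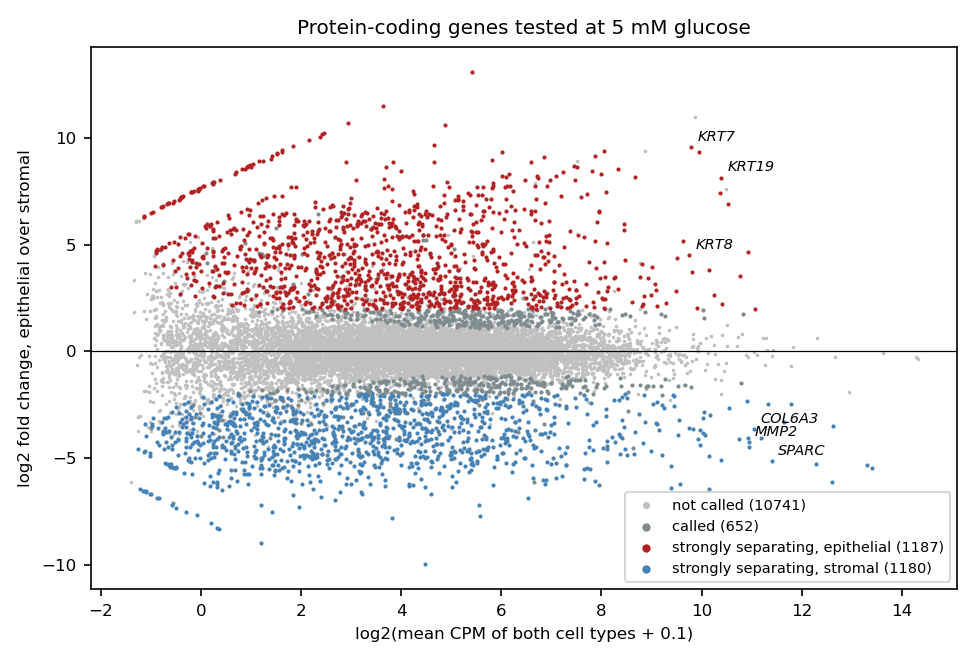
Log2 fold change of epithelial over stromal cells against the log2 of the mean CPM of both cell types plus 0.1 for the 13760 protein-coding genes tested at 5 mM glucose. Strongly separating genes are red (1187, epithelial) and blue (1180, stromal), and slanted rows at low levels are genes with few or no counts in 1 cell type, whose fitted fold depends on the prior count.

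The largest epithelial differences among strongly separating genes with at least 50 CPM included adhesion, mucosal, envelope and antiviral genes, and 1 of the 12 was the marker KRT7. An adhesion molecule was EPCAM (ENSBTAG00000006474), the epithelial cell adhesion molecule, with 478, 149 and 387 CPM in the epithelial and 31.3, 0 and 0 CPM in the stromal libraries. CDH17 (ENSBTAG00000021964), a cadherin best known from the intestine, had 2159, 1337 and 2200.2 CPM in the epithelial and 209, 0.566 and 0.732 CPM in the stromal libraries. NPNT (ENSBTAG00000006686), a matrix ligand of integrins, had 141, 196 and 354 CPM in the epithelial and 2.87, 0 and 0 CPM in the stromal libraries. Each of these was nearly absent from the stromal libraries of replicates 2 and 3 and present in that of replicate 1. MUC20 (ENSBTAG00000032819), a transmembrane mucin, had 409, 317 and 641 CPM in the epithelial and 33.0, 0 and 0.122 CPM in the stromal libraries. ST14 (ENSBTAG00000019712), the membrane serine protease matriptase, had 245, 592 and 233 CPM in the epithelial and 24.8, 0.0629 and 0.122 CPM in the stromal libraries. Their log2 fold changes were 8.67 (SE 2.23) for EPCAM, 9.31 (SE 2.37) for CDH17, 9.08 (SE 1.78) for NPNT, 9.17 (SE 2.42) for MUC20 and 8.61 (SE 2.30) for ST14.

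SCEL (ENSBTAG00000032821), sciellin of the cornified envelope, had 392, 302 and 875 CPM in the epithelial and 32.0, 0 and 0.122 CPM in the stromal libraries, and a log2 fold change of 9.38 (SE 2.51). UPK3BL1 (ENSBTAG00000020524), a uroplakin-like gene, had 54.8, 112 and 220.0 CPM in the epithelial and 0.326, 0 and 0.122 CPM in the stromal libraries, and 9.34 (SE 0.99). For UPK3BL1 the stromal library of replicate 1 was under 1 CPM, like the other stromal libraries. PADI1 (ENSBTAG00000002138), which converts arginine to citrulline in proteins, had 1.73, 93.7 and 81.0 CPM in the epithelial and 0.0652, 0 and 0 CPM in the stromal libraries, and with 1 stromal count in all its ratio was 2732-fold in CPM (95% exact interval 490.0 to 108000.0). GALNT17 (ENSBTAG00000008718), of the family that starts mucin-type glycans, had 25.5, 54.8 and 70.5 CPM in the epithelial and 0.130, 0 and 0 CPM in the stromal libraries, a ratio of 1189-fold in CPM (95% exact interval 329 to 9828) on 2 stromal counts. These intervals cover counting error only. Within the epithelial group PADI1 was far lower in replicate 1 than in replicates 2 and 3. Without replicate 2, KRT7, SCEL, CDH17, MUC20, NPNT, EPCAM and ST14 were not called, at log2 fold changes of 5.66 to 7.52.

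A pair of the 12 genes are induced by interferon. MX2 (ENSBTAG00000008471), an antiviral GTPase, had 208, 12.5 and 35.3 CPM in the epithelial libraries and no count in any stromal library, which makes it at least 450.3-fold higher against 3 counts in each stromal library. RSAD2 (ENSBTAG00000016061), the antiviral enzyme viperin, had 243, 23.7 and 69.7 CPM in the epithelial and 0.586, 0 and 0.0610 CPM in the stromal libraries, with a log2 fold change of 8.98 (SE 0.61). Both were highest in the epithelial library of replicate 1 and lowest in that of replicate 2, with every stromal library under 1 CPM. Both were called with any 1 replicate left out.

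The 12 largest stromal differences included genes of smooth muscle filaments and of the matrix, secreted regulators, a channel and an endocytic adaptor. ACTA2 (ENSBTAG00000014614), smooth muscle actin, had 60.6, 27.6 and 10.6 CPM in the epithelial and 1188, 4079 and 1398 CPM in the stromal libraries. ACTG2 (ENSBTAG00000015441), the enteric smooth muscle actin, had 13.8, 5.48 and 3.36 CPM in the epithelial and 263, 922 and 274 CPM in the stromal libraries. DES (ENSBTAG00000005353), the muscle intermediate filament desmin, had 35.4, 14.5 and 18.2 CPM in the epithelial and 719, 2473 and 1307 CPM in the stromal libraries. XIRP1 (ENSBTAG00000046512), an actin-binding protein of striated muscle junctions, had 2.06, 0.296 and 0.274 CPM in the epithelial and 70.2, 157 and 51.7 CPM in the stromal libraries. In all 4 the stromal library of replicate 2 was the highest, and every epithelial library lay below the lowest stromal one. Their log2 fold changes ran from -7.18 (SE 0.86) for XIRP1 to -6.21 (SE 0.74) for DES.

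Among matrix genes, COL12A1 (ENSBTAG00000020056), a collagen that bridges fibrils, had 769.7, 83.2 and 147 CPM in the epithelial and 10893, 11583 and 14079 CPM in the stromal libraries. LUM (ENSBTAG00000001745), the proteoglycan lumican, had 158, 1.78 and 18.0 CPM in the epithelial and 1485, 954 and 1407 CPM in the stromal libraries. In the epithelial group both were highest in replicate 1, where LUM was at 158 CPM against 1.78 CPM in replicate 2. SMOC1 (ENSBTAG00000030599), a matrix modulator of bone morphogenetic protein signals, had 2.46, 4.82 and 3.01 CPM in the epithelial and 108, 316 and 269 CPM in the stromal libraries. SFRP2 (ENSBTAG00000018563), a secreted modulator of WNT signals, had 3.26, 0.445 and 1.99 CPM in the epithelial and 100.5, 277 and 168 CPM in the stromal libraries. SERPINF1 (ENSBTAG00000009705), an angiogenesis inhibitor, had 3.33, 0.445 and 0.685 CPM in the epithelial and 51.5, 63.1 and 84.3 CPM in the stromal libraries. The log2 fold changes of these 5 genes lay between -6.88 for SFRP2 and -6.10 for SERPINF1. NTS (ENSBTAG00000005305), the peptide neurotensin, had 1.86, 0.593 and 0.411 CPM in the epithelial and 35.4, 97.7 and 58.3 CPM in the stromal libraries. DAB2 (ENSBTAG00000016152), an endocytic adaptor, had 6.59, 0.222 and 1.51 CPM in the epithelial and 121, 115 and 98.2 CPM in the stromal libraries. KCNJ5 (ENSBTAG00000006902), an inward rectifier potassium channel, had 0.399, 0.667 and 0.0685 CPM in the epithelial and 20.3, 233 and 31.2 CPM in the stromal libraries, the largest of the 12 at -7.69 (SE 0.72). All 12 were called with any 1 replicate left out. In the vehicle cultures 11 of them were called in the same direction, and NTS was not, at -3.68.

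**Figure D4:**
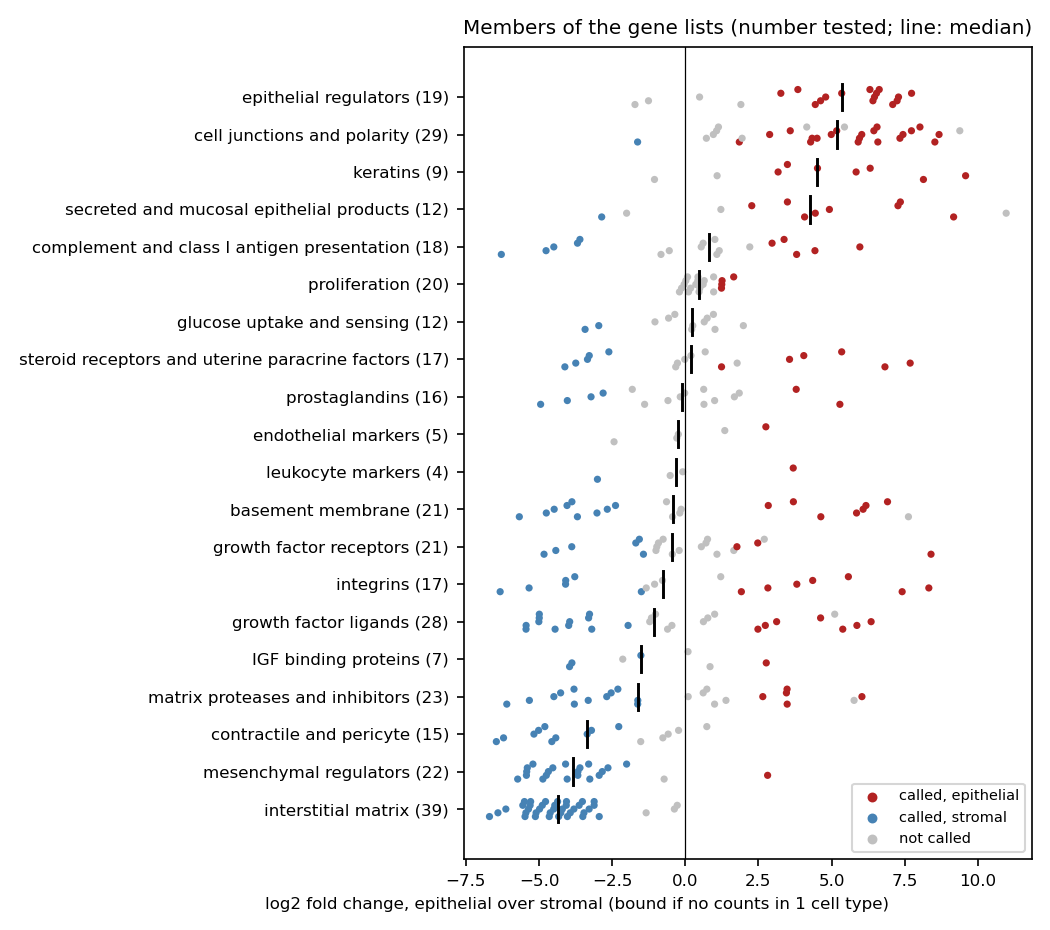
Log2 fold change of epithelial over stromal cells for the tested members of the 20 gene lists, one row per list with the number tested, red and blue for members called higher in epithelial or stromal cells, grey for those not called, and a line at the median. Genes with no count in 1 cell type are drawn at their bound, and the medians so computed run from 5.34 for epithelial regulators to -4.36 for interstitial matrix, and basement membrane, integrins and growth factor ligands hold calls on both sides.

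Of 9 keratin genes tested, 7 were higher in epithelial cells and none in stromal cells, against 11.1% of all genes in that direction. The median log2 fold change was 7.89, or 4.52 with the genes that had no stromal count at their bound, beside 0.0025 over all genes. KRT17, KRT5 and KRT15, keratins of basal and stratified cells, had no count in any stromal library. Such a gene can be tested only through its epithelial counts and cannot be called stromal, and these 3 are among the 7. KRT17 had 2.33, 12.8 and 30.1 CPM in the epithelial libraries, at least 79.8-fold higher against 3 counts in each stromal library. KRT5 had 0.931, 31.2 and 0.274 CPM, at least 57.1-fold higher, which rests on replicate 2. Without replicate 1 or 2, KRT5 had too few counts to be tested. The level of KRT15 was at most 3.97 CPM, and without replicate 2 or 3 it had too few counts to be tested. KRT80 and KRT10 did not pass the test, at 1.09 and -1.05. Without replicate 2, 3 of the 7 were called.

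Genes of cell junctions and polarity seal and orient the sheet. Of 29 tested, 20 were higher in epithelial and 1 in stromal cells, against 11.1% and 10.9% of all genes. The median log2 fold change was 5.44, or 5.17 with 1 gene at its bound. DSP, the plaque protein of desmosomes, had 732, 674 and 494 CPM in the epithelial and 33.4, 0.314 and 0.366 CPM in the stromal libraries, and a log2 fold change of 8.53 (SE 1.73). CLDN7, a tight junction claudin, had 144, 189 and 186 CPM in the epithelial and 14.9, 0 and 0.0610 CPM in the stromal libraries, and 8.02 (SE 2.13). CLDN8, another claudin, had 1.86, 0.519 and 9.04 CPM in the epithelial libraries and no stromal count, at least 20.1-fold higher, and had too few counts to be tested without replicate 1 or 3. CDH1, E-cadherin, had 548, 436 and 606 CPM in the epithelial and 54.5, 1.19 and 0.427 CPM in the stromal libraries, and 7.44 (SE 1.72). In all of these but CLDN8 the stromal library of replicate 1 held most of the stromal reads. CLDN4 had 718, 1047 and 954 CPM in the epithelial and 87.4, 0.0629 and 0.488 CPM in the stromal libraries and a log2 fold change of 9.38 but did not pass (adjusted p = 0.0542 in edgeR), and it was called without replicate 1 or replicate 3, at 11.70 and 7.23. The groups did not overlap for 28 of the 29 genes, against 45.2% of all genes tested. JUP, a plaque protein of many cell types, was among them with 434, 530.2 and 412 CPM in the epithelial and 207, 153 and 258 CPM in the stromal libraries, but did not pass, at 0.96 (SE 0.39). The exception in direction was CDH3, P-cadherin, at -1.63 (SE 0.40), with 1.86, 3.41 and 4.32 CPM in the epithelial and 4.04, 11.1 and 11.4 CPM in the stromal libraries, whose groups overlapped. Without replicate 2, DSP, CLDN7 and EPCAM were not called (5.52 to 6.66), nor was CDH1, at 6.14, and 13 members were called epithelial. CDH3 was not called without replicate 1 or 3 (-1.75 and -1.60).

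Of 19 epithelial transcription and splicing regulators tested, 15 were higher in epithelial and none in stromal cells, against 11.1% and 10.9% of all genes. The median was 6.31, or 5.34 with 1 gene at its bound. ELF3, an ETS factor of epithelia, had 68.5, 295 and 243 CPM in the epithelial and 4.63, 0.314 and 0.183 CPM in the stromal libraries. EHF, a related ETS factor, had 439, 144 and 545 CPM in the epithelial and 26.7, 0.503 and 0.427 CPM in the stromal libraries. ESRP1, which sets the epithelial splice forms of receptors and adhesion proteins, had 96.4, 28.3 and 80.4 CPM in the epithelial and 3.65, 0 and 0 CPM in the stromal libraries. Their log2 fold changes were 7.73 (SE 1.63), 7.24 (SE 1.44) and 7.09 (SE 1.36). ESRP1 had no count in the stromal libraries of replicates 2 and 3. The 4 members that did not pass were EMX2 at 0.49, TFAP2A at -1.26, TFAP2C at -1.72 and ELF5, which had no stromal count and at most 1.23 CPM. ELF5 was called without replicate 1, where it still had no stromal count, and had too few counts to be tested without replicate 2 or 3. TFAP2C was called without replicate 2 as higher in stromal cells, at -2.11. FOXA2, the factor of uterine glands, was low, with 0.931, 5.48 and 4.80 CPM in the epithelial and 0.0652, 0 and 0 CPM in the stromal libraries, on 1 stromal count. Without replicate 2, ELF3 and EHF were not called (5.98 to 6.44).

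Of 12 secreted and mucosal products tested, 8 were higher in epithelial and 1 in stromal cells, against 11.1% and 10.9% of all genes. The median was 4.26. MUC1, the mucin of the luminal surface, had 532, 214 and 456 CPM in the epithelial and 46.8, 0.440 and 0.488 CPM in the stromal libraries, and a log2 fold change of 7.35 (SE 1.60). LTF, the iron-binding lactoferrin of uterine fluid, had 17.8, 16.9 and 3.56 CPM in the epithelial and 2.28, 0.0629 and 0 CPM in the stromal libraries, and 4.92 (SE 1.13). PIGR, which carries antibodies across the epithelium, had 1.93, 4.22 and 11.6 CPM in the epithelial and 0.0652, 0 and 0 CPM in the stromal libraries, a ratio of 283-fold in CPM (95% exact interval 50.3 to 11220.0) on 1 stromal count. WFDC2, a small secreted protease inhibitor, had 1433, 3419.6 and 639 CPM in the epithelial and 124, 0 and 0.0610 CPM in the stromal libraries but did not pass (adjusted p = 0.0644 in edgeR), and was called without replicate 1 or replicate 3, at 15.28 and 8.52. SPP1, osteopontin, overlapped between the groups with 4337, 156 and 2587 CPM in the epithelial and 1056, 205 and 447 CPM in the stromal libraries, and was lowest of all in the epithelial library of replicate 2. It was called without replicate 2, at 2.03. The stromal call was SLPI, a secreted protease inhibitor, at -2.86 (SE 0.71), with 4.52, 0.296 and 0.0685 CPM in the epithelial and 54.1, 0.629 and 0.305 CPM in the stromal libraries. Its level in the stromal library of replicate 1 set this value, the groups overlapped, and without replicate 1 it had too few counts to be tested. Without replicate 2, MUC20, MUC1 and LTF were not called (3.48 to 6.62).

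On the mesenchymal side, 20 of 22 transcription factors tested were higher in stromal cells, against 10.9% of all genes, and 1 was higher in epithelial cells, with a median log2 fold change of -3.86. HOXA10 and HOXA11, which give the uterus its identity along the reproductive tract, had 18.4, 19.9 and 25.7 CPM and 18.8, 15.0 and 33.6 CPM in the stromal libraries. In the epithelial libraries they had 0.798, 0.0741 and 1.16 CPM and 1.26, 0 and 0.959 CPM. The log2 fold changes were -5.40 (SE 0.69) and -5.43 (SE 0.85). HAND1, a basic helix-loop-helix factor, had 1.86, 0.296 and 0.0685 CPM in the epithelial and 36.6, 22.9 and 11.6 CPM in the stromal libraries, and -5.73 (SE 0.66). WT1, a zinc finger factor of coelomic mesenchyme, had 2.66, 0.445 and 1.30 CPM in the epithelial and 49.1, 48.3 and 42.4 CPM in the stromal libraries, and -5.42 (SE 0.58). The stromal libraries of all 4 lay apart from the epithelial ones. Factors that repress epithelial genes were also stromal, with SNAI1 at -3.67 (SE 0.35), ZEB1 at -3.30 (SE 0.37) and TWIST1 at -3.60 (SE 0.57). ZEB2 stood on 2 identifiers and was not counted. ENSBTAG00000012615 gave -4.83 and ENSBTAG00000048810 gave -3.87, both called in the same direction. The epithelial exception was OSR1, a zinc finger factor, with 51.4, 74.4 and 38.4 CPM in the epithelial and 10.0, 4.72 and 5.49 CPM in the stromal libraries, at 2.81 (SE 0.47). In the insulin vehicle cultures OSR1 was not called, at 0.42 (SE 0.23). PRRX2 did not pass, at -0.72 (SE 0.36), and was called without replicate 2, at -1.04. The 5 named here by fold (HAND1, HOXA11, WT1, HOXA10 and OSR1) were called with any 1 replicate left out. Not every HOX gene was higher in stromal cells. HOXB8, outside this list, had an epithelial median of 21.6 CPM and 1.82, 2.20 and 0 CPM in the stromal libraries. HOXB9, also outside it, had an epithelial median of 23.6 CPM and 2.28, 3.58 and 0.427 CPM in the stromal libraries.

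Genes of the interstitial matrix, the fibrils and gel between stromal cells, were nearly all stromal. Of 39 genes tested, 36 were higher in stromal and none in epithelial cells, against 10.9% and 11.1% of all genes. The median was -4.36. Fibrillar collagen I followed this pattern. COL1A1 had 1018, 693 and 244 CPM in the epithelial and 23136, 22772 and 17538 CPM in the stromal libraries, with a log2 fold change of -5.45 (SE 0.58). COL1A2 had 1004, 754 and 244 CPM in the epithelial and 20962, 23078 and 15106 CPM in the stromal libraries, with -5.30 (SE 0.56). COL3A1, of collagen III, had 681, 187 and 184 CPM in the epithelial and 10027, 7681 and 11194 CPM in the stromal libraries, with -5.29 (SE 0.60). The small proteoglycan DCN had 169, 9.41 and 27.1 CPM in the epithelial and 1405, 677 and 1725 CPM in the stromal libraries, with -5.36 (SE 0.81), and in the epithelial group replicate 1 was the highest and replicate 2 the lowest. MFAP4, a partner of elastic fibres, had 0.931, 0.296 and 0.137 CPM in the epithelial and 14.5, 45.0 and 84.1 CPM in the stromal libraries, with -6.69 (SE 1.06), the largest of the list. ELN, elastin itself, was near the detection limit with 0, 0.0741 and 0.0685 CPM in the epithelial and 0.391, 2.39 and 4.15 CPM in the stromal libraries, and had too few counts to be tested without replicate 2 or 3. FN1, fibronectin, did not pass, with 12295, 20289.9 and 26793 CPM in the epithelial and 14870.3, 23223 and 21727 CPM in the stromal libraries, at -0.28 (SE 0.40). THBS1, thrombospondin, did not pass either, with 21315, 26444 and 11674 CPM in the epithelial and 18439, 23338 and 21240.2 CPM in the stromal libraries, at -0.37 (SE 0.45). Both were abundant in each of the 6 libraries. MFAP5, a microfibril protein, did not pass with 153, 13.2 and 87.6 CPM in the epithelial and 90.6, 172 and 141 CPM in the stromal libraries, and was called without replicate 1, at -2.37. With any 1 replicate left out, 34 to 37 members were called.

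Basement membrane genes split between the cell types. Of 21 tested, 7 were higher in epithelial and 9 in stromal cells, against 11.1% and 10.9% of all genes. A further 5 did not pass, so that the median, -0.44, describes neither group. The epithelial calls included LAMA3, a laminin chain that anchors epithelial sheets, at a log2 fold change of 4.63 (SE 0.83). LAMB3, another laminin chain of epithelial sheets, had 2726, 4285 and 1217 CPM in the epithelial and 438, 1.76 and 3.84 CPM in the stromal libraries but did not pass (adjusted p = 0.0549 in edgeR), and was called without replicate 1 or replicate 3, at 9.54 and 6.67. COL17A1, the hemidesmosomal collagen, had 123, 51.4 and 101 CPM in the epithelial and 12.4, 0.126 and 0.305 CPM in the stromal libraries, with 6.17 (SE 1.27). The collagen IV genes divided by chain. COL4A3 had 46.5, 169 and 45.4 CPM in the epithelial and 7.95, 0.251 and 0.244 CPM in the stromal libraries, with 6.08 (SE 1.54). COL4A4 had 14.9, 87.7 and 21.7 CPM in the epithelial and 2.67, 0.0629 and 0.122 CPM in the stromal libraries, with 5.85 (SE 1.57). In contrast COL4A1 had 293, 547 and 175 CPM in the epithelial and 3801, 4063 and 5176 CPM in the stromal libraries, with -4.04 (SE 0.57). COL4A2 and COL4A5 were stromal as well, at -3.69 and -3.88. The linkers between laminin and collagen IV were stromal, with NID1 at 41.2, 6.30 and 16.9 CPM in the epithelial and 405, 299 and 446 CPM in the stromal libraries and -4.75 (SE 0.55), and NID2 at -4.48 (SE 0.47). LAMA2, the laminin chain of muscle and mesenchyme, stayed under 2 CPM in every library. HSPG2, LAMC1, LAMB2 and COL18A1 did not pass and lay between -0.64 and -0.14. Without replicate 2, COL17A1, COL4A3 and COL4A4 were not called (3.84 to 4.93), nor was LAMA3, at 4.27, and 2 members were called epithelial.

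The integrins, receptors for this matrix, split as well. Of 17 tested, 7 were higher in epithelial and 6 in stromal cells, against 11.1% and 10.9% of all genes. The median was -0.78. The hemidesmosome pair of laminin receptors was epithelial. ITGA6 had 2344, 702 and 1047 CPM in the epithelial and 203, 35.6 and 17.1 CPM in the stromal libraries, with a log2 fold change of 4.35 (SE 0.60). ITGB4 had 2302, 4151 and 1284 CPM in the epithelial and 208, 1.95 and 5.31 CPM in the stromal libraries, with 7.41 (SE 1.83). ITGB6, an epithelial partner of the alpha V chain, had 406, 654 and 424 CPM in the epithelial and 47.1, 0.126 and 0.488 CPM in the stromal libraries, with 8.32 (SE 2.21). ITGA7, a laminin receptor best known from muscle, had 38.8, 129 and 38.8 CPM in the epithelial and 7.82, 0.503 and 0.244 CPM in the stromal libraries, with 5.57 (SE 1.37). Genes of collagen receptors lay on both sides. ITGA11 was stromal with 1.93, 0.0741 and 0.480 CPM in the epithelial and 32.7, 48.3 and 48.8 CPM in the stromal libraries, at -6.33 (SE 0.93), as was ITGA1 at -4.09 (SE 0.47). ITGA2 was epithelial with 685, 279 and 441 CPM in the epithelial and 189.6, 17.8 and 45.3 CPM in the stromal libraries, at 2.82 (SE 0.54). Also stromal were the fibronectin receptor ITGA5, at -4.09 (SE 0.40), and ITGA8, at -5.34 (SE 0.59). ITGAV did not pass, at -1.34 (SE 0.37) and an adjusted p of 0.0502 in edgeR. Without replicate 2, ITGB6, ITGB4 and ITGA7 were not called (3.80 to 5.71).

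Of 23 matrix proteases and inhibitors tested, 12 were higher in stromal and 5 in epithelial cells, against 10.9% and 11.1% of all genes. The median was -1.62. MMP7, matrilysin of glandular epithelium, had 885, 76.1 and 452 CPM in the epithelial and 36.7, 0.754 and 2.32 CPM in the stromal libraries, with a log2 fold change of 6.04 (SE 0.75). Its epithelial range was wide, with replicate 2 the lowest. SERPINE2, a serine protease inhibitor of the cell surface, had 1387, 685 and 648 CPM in the epithelial and 88.9, 60.2 and 55.2 CPM in the stromal libraries, with 3.45 (SE 0.36), and MMP15, a membrane-bound protease, had 3.48 (SE 0.58). MMP9, the second gelatinase, was called at 3.48 (SE 0.92), but its groups overlapped, with 28.7, 4.97 and 2.47 CPM in the epithelial and 4.69, 0 and 0.244 CPM in the stromal libraries. On the stromal side beside MMP2, ADAMTS2, which trims procollagen, had 15.6, 6.23 and 10.7 CPM in the epithelial and 209.7, 171 and 211 CPM in the stromal libraries, with -4.49 (SE 0.38), and MMP19 had -5.33 (SE 0.53). PLAU, the urokinase plasminogen activator, was epithelial at 2.65 (SE 0.43). The 8 members named by fold, MMP2 and SERPINF1 included, were called with any 1 replicate left out.

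Of 15 contractile and pericyte genes tested, 10 were higher in stromal and none in epithelial cells, against 10.9% and 11.1% of all genes. The median was -3.35. Beside ACTA2 and DES, CNN1, the smooth muscle calponin, had 10.6, 5.11 and 6.65 CPM in the epithelial and 158, 333 and 207 CPM in the stromal libraries, with a log2 fold change of -5.17 (SE 0.53). CSPG4, the proteoglycan NG2 of pericytes, had 10.7, 8.15 and 8.43 CPM in the epithelial and 259, 278 and 219 CPM in the stromal libraries, with -5.01 (SE 0.36). RGS5, a marker of pericytes, had at most 1.28 CPM and was not tested, and MYH11, the heavy chain of differentiated smooth muscle, had 0.732, 4.59 and 1.10 CPM in the epithelial and 2.28, 5.22 and 5.06 CPM in the stromal libraries and did not pass, but was called without replicate 2, at -2.19. The actin-binding genes TPM1 and MYL9 did not pass, at -0.23 (SE 0.38) and -0.77 (SE 0.33). Summed over the 16 genes, the list had 2410 to 4530 CPM in the epithelial and 8100 to 15400 CPM in the stromal libraries, highest in stromal replicate 2.

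Of 28 growth factor ligands tested, 7 were higher in epithelial and 12 in stromal cells, against 11.1% and 10.9% of all genes. The median was -1.09. Several ligands of the EGF receptor were epithelial. AREG, amphiregulin, had 59.8, 27.3 and 35.1 CPM in the epithelial and 3.26, 0.0629 and 0 CPM in the stromal libraries, with a log2 fold change of 6.35 (SE 1.20). TGFA, transforming growth factor alpha, had 55.7, 91.1 and 36.2 CPM in the epithelial and 6.32, 1.13 and 0.976 CPM in the stromal libraries, with 4.62 (SE 0.75). HBEGF, the heparin-binding member, had 3.12 (SE 0.42). BTC, betacellulin, had 4.52, 5.04 and 4.52 CPM in the epithelial and 0.130, 0 and 0.0610 CPM in the stromal libraries, a ratio of 74.4-fold in CPM (95% exact interval 25.1 to 364) on 3 stromal counts. FGF9, a fibroblast growth factor that acts on stroma, had 64.3, 22.2 and 158 CPM in the epithelial and 8.73, 0.251 and 0.671 CPM in the stromal libraries, with 5.38 (SE 1.13). NRG1 stood on 2 identifiers, ENSBTAG00000004150 and ENSBTAG00000054057, and was epithelial on both, at 2.09 and 2.89, outside the count of the list. EREG, of the same family, did not pass, at -1.16 (SE 0.54). Stromal calls included ligands that act on epithelium. FGF7 had 10.5, 1.11 and 11.8 CPM in the epithelial and 98.1, 116 and 298 CPM in the stromal libraries, with -4.99 (SE 0.73). FGF10, its close relative, had 0.266, 0 and 0.0685 CPM in the epithelial and 3.65, 4.21 and 4.70 CPM in the stromal libraries, with -5.44 (SE 0.89). HGF, hepatocyte growth factor, had 1.60, 0.222 and 1.44 CPM in the epithelial and 21.7, 4.65 and 35.1 CPM in the stromal libraries, with -4.45 (SE 0.44). IGF2 was uneven within the stromal group, with 0.466, 0.296 and 2.95 CPM in the epithelial and 15.6, 3.58 and 110.1 CPM in the stromal libraries, and -5.01 (SE 0.52). IGF1 stayed under 2 CPM in every library. Without replicate 2, FGF9 was not called, at 4.75.

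Among receptors, 3 of 21 tested were higher in epithelial and 6 in stromal cells, beside 11.1% and 10.9% of all genes, with a median of -0.44, and 12 did not pass. ERBB3 had 199.8, 338 and 341 CPM in the epithelial and 19.0, 0.0629 and 0.183 CPM in the stromal libraries, with a log2 fold change of 8.40 (SE 2.13), and ERBB2 had 1.76 (SE 0.39). MET, the receptor of HGF, had 436, 218 and 725 CPM in the epithelial and 60.4, 81.4 and 52.1 CPM in the stromal libraries, with 2.48 (SE 0.52). Ligand and receptor thus lay on opposite sides for HGF and MET. EGFR did not pass, at 0.76 (SE 0.37), and had at least 67.5 CPM in every library. FGFR2, whose epithelial form binds FGF7 and FGF10, did not pass either, at 1.08 (SE 0.43), and gene counts do not tell its forms apart. PDGFRA had 83.6, 11.3 and 56.5 CPM in the epithelial and 987, 377 and 2050.1 CPM in the stromal libraries, with -4.83 (SE 0.51), and its partner PDGFRB had -4.43 (SE 0.48). FLT1, a receptor of VEGFA, was stromal at -3.88 (SE 0.49) and FGFR1 at -1.69 (SE 0.40). INSR and IGF1R did not pass, at 0.71 (SE 0.37) and -0.76 (SE 0.35). Without replicate 3, MET, ERBB2 and FGFR1 were not called, at 1.95, 1.85 and -1.34, and without replicate 2 ERBB3 was not, at 5.92.

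The 7 binding proteins that carry insulin-like growth factors were all tested. In all, 1 was higher in epithelial and 3 in stromal cells, beside 11.1% and 10.9% of all genes. IGFBP3 had 727, 253 and 261 CPM in the epithelial and 173, 20.8 and 27.0 CPM in the stromal libraries, with a log2 fold change of 2.77 (SE 0.45). IGFBP4 had 46.2, 46.5 and 41.7 CPM in the epithelial and 572, 442 and 839 CPM in the stromal libraries, with -3.96 (SE 0.42). IGFBP7 had 71.2, 66.0 and 22.1 CPM in the epithelial and 563, 604 and 637 CPM in the stromal libraries, with -3.88 (SE 0.53). IGFBP5 was called at -1.52 (SE 0.31) although its groups overlapped, with 9.18, 37.0 and 127 CPM in the epithelial and 17.8, 104 and 343 CPM in the stromal libraries. In IGFBP5 each stromal library was above the epithelial library of the same number, and the libraries of a number were high or low together. Without replicate 3 it was not called, at -1.42. In the insulin vehicle cultures IGFBP5 had the opposite sign, at 0.68 (SE 0.83), and was not called.

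Steroid receptors and paracrine factors of the uterus gave 6 epithelial and 5 stromal calls among 17 tested, beside 11.1% and 10.9% of all genes. The median was 0.19. OXTR, the oxytocin receptor through which luteolysis is started, had 38.5, 54.2 and 181 CPM in the epithelial and 0.586, 0.126 and 0.244 CPM in the stromal libraries, with a log2 fold change of 7.68 (SE 0.82). It was near absent from all 3 stromal libraries. IHH, the progesterone-regulated ligand that epithelium sends to stroma, had 37.0, 31.6 and 12.9 CPM in the epithelial and 2.09, 0.126 and 0.244 CPM in the stromal libraries, with 5.34 (SE 0.80). The hedgehog receptor gene PTCH1 was also epithelial, at 1.24 (SE 0.31). PTCH1 was not called without replicate 1 or 3, at 1.34 and 1.28. GLI1, a target of the pathway, was stromal at -3.74 (SE 1.00), on at most 1.34 CPM, and had too few counts to be tested without replicate 2 or 3. WNT ligands divided as well. WNT7A, a ligand of the luminal epithelium, had 80.0, 67.3 and 70.3 CPM in the epithelial and 7.49, 0 and 0.0610 CPM in the stromal libraries, with 6.82 (SE 1.63). WNT5A had 67.7, 19.0 and 23.8 CPM in the epithelial and 396, 242 and 211 CPM in the stromal libraries, with -3.34 (SE 0.37). WNT4, a factor of decidual stroma, had 0.466, 1.26 and 1.10 CPM in the epithelial and 9.45, 47.3 and 4.64 CPM in the stromal libraries, with -4.12 (SE 0.71). MSX1, a homeobox factor of the receptive epithelium, had 4.05 (SE 0.50). Without replicate 2, WNT7A was not called, at 4.99.

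In prostaglandin handling, 2 of 16 genes tested were higher in epithelial and 4 in stromal cells, beside 11.1% and 10.9% of all genes, with a median of -0.097. SLCO2A1, the uptake transporter, had 101, 16.7 and 46.2 CPM in the epithelial and 1.63, 0.629 and 0.854 CPM in the stromal libraries, with a log2 fold change of 5.28 (SE 0.44). The receptor gene PTGER4 had 3.79 (SE 0.99). PTGS2, the inducible cyclooxygenase, was called stromal at -2.81 (SE 0.69), with 253, 8.89 and 183 CPM in the epithelial and 1123, 209.8 and 426 CPM in the stromal libraries. Its groups overlapped, since the epithelial library of replicate 1 was above the stromal library of replicate 2. In the insulin vehicle cultures PTGS2 was not called, at 0.34, with means of 144 CPM in the epithelial and 118 CPM in the stromal libraries. The difference of PTGS2 between the experiments did not pass (unadjusted p = 0.00497, adjusted p = 0.362 in edgeR). PTGDS, a prostaglandin D synthase, had 3.33, 0.593 and 1.71 CPM in the epithelial and 41.3, 27.8 and 61.7 CPM in the stromal libraries, with -4.94 (SE 0.52). PTGIS, the prostacyclin synthase, had 0.865, 0.741 and 1.71 CPM in the epithelial and 6.45, 59.7 and 10.0 CPM in the stromal libraries, with -4.03 (SE 0.83). The prostacyclin receptor PTGIR was also stromal, at -3.22 (SE 0.74), on at most 3.71 CPM, and had too few counts to be tested without replicate 2 or 3. PTGES and AKR1B1, of the E2 and F2 alpha branches, did not pass, at -0.59 (SE 1.05) and -0.17 (SE 0.45).

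Genes of glucose uptake and sensing mostly did not pass. In all, 2 of 12 were higher in stromal and none in epithelial cells, beside 10.9% and 11.1% of all genes, and the median was 0.24. SLC2A3, a high-affinity glucose transporter, had 302, 85.1 and 588 CPM in the epithelial and 2154, 677 and 3068 CPM in the stromal libraries, with a log2 fold change of -2.96 (SE 0.37). SLC2A10 had 3.59, 2.52 and 2.81 CPM in the epithelial and 20.9, 34.3 and 28.2 CPM in the stromal libraries, with -3.43 (SE 0.41). In the insulin vehicle cultures SLC2A10 was called stromal as well, at -3.63, but SLC2A3 was not called, at -0.40. There SLC2A3 had means of 784 CPM in the epithelial and 860 CPM in the stromal libraries. The difference of SLC2A3 between the experiments did not pass (unadjusted p = 0.00898, adjusted p = 0.398 in edgeR). SLC2A1, the basal glucose transporter, had 621, 1016 and 488 CPM in the epithelial and 267, 78.7 and 139.8 CPM in the stromal libraries, which do not overlap, but it did not pass at 1.98 (SE 0.60) and an adjusted p of 0.0651 in edgeR. It was called with any 1 replicate left out, at 2.55, 1.26 and 2.26 without replicates 1, 2 and 3. TXNIP, a glucose-responsive arrestin, had 97.5, 164 and 471 CPM in the epithelial and 51.0, 108 and 227 CPM in the stromal libraries. HK2, a hexokinase, had 77.2, 192 and 191 CPM in the epithelial and 114, 80.0 and 117 CPM in the stromal libraries. Both overlapped between the groups, at 0.65 (SE 0.30) and 0.25 (SE 0.46).

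Immune genes that nonimmune cells express were divided by pathway. They gave 5 epithelial and 5 stromal calls among 18 tested, beside 11.1% and 10.9% of all genes, with a median of 0.81. Class I antigen processing was epithelial where called. PSMB8, a subunit of the immunoproteasome, had 49.7, 62.2 and 39.8 CPM in the epithelial and 3.58, 5.66 and 3.42 CPM in the stromal libraries, with a log2 fold change of 3.37 (SE 0.34). PSMB9, another subunit, had 14.9, 11.5 and 9.11 CPM in the epithelial and 0.782, 0.817 and 0.0610 CPM in the stromal libraries, with 4.43 (SE 0.69). TAP1, the peptide transporter, had 89.2, 60.1 and 48.4 CPM in the epithelial and 5.54, 6.48 and 1.59 CPM in the stromal libraries, with 3.80 (SE 0.44), and NLRC5, the activator of class I genes, had 2.96 (SE 0.43). B2M did not pass, at 1.16 (SE 0.71), and was lowest in the epithelial library of replicate 2, without which pair it was called, at 2.10. Complement genes lay on both sides. CFB, factor B of the alternative pathway, had 714, 514 and 811 CPM in the epithelial and 42.4, 3.58 and 5.80 CPM in the stromal libraries, with 5.96 (SE 0.86). C1S, a protease of the classical pathway, had 7.72, 0.371 and 1.92 CPM in the epithelial and 39.0, 24.8 and 89.1 CPM in the stromal libraries, with -4.76 (SE 0.85). C1R, its partner protease, had 3.79, 0 and 1.37 CPM in the epithelial and 13.6, 8.05 and 49.2 CPM in the stromal libraries, with -4.49 (SE 1.07). Without replicate 2, C1R was not called, at -3.65.

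Other cell types were checked by their markers. Of 16 leukocyte markers listed, 7 could be found by symbol among the 15677 annotated protein-coding genes, and 4 were tested. Markers not found by symbol were not looked up, so their level is not known here. Summed over the 7, the level was 4.52 to 11.5 CPM in the epithelial and 4.15 to 19.5 CPM in the stromal libraries. CD14, of monocytes, had 5.06, 2.08 and 6.51 CPM in the epithelial and 7.69, 0.943 and 14.3 CPM in the stromal libraries and did not pass. CD3D, of T cells, had at most 0.0741 CPM. AIF1, of macrophages, was called epithelial at 3.69 (SE 0.84), with 2.33, 1.33 and 0.754 CPM in the epithelial and 0.261, 0.0629 and 0 CPM in the stromal libraries. CD163, of macrophages as well, was called stromal, with 0.532, 0.0741 and 0.343 CPM in the epithelial and 2.22, 1.32 and 2.50 CPM in the stromal libraries. AIF1 was not called without replicate 2 or 3 (3.40 and 3.35), nor CD163 without replicate 3 (-2.97). For the 10 endothelial markers found by symbol, the sum was 37.4 to 85.0 CPM in the epithelial and 11.2 to 18.3 CPM in the stromal libraries. Most of it in the epithelial libraries was VWF, of endothelial granules, with 28.4, 76.1 and 49.5 CPM in the epithelial and 8.80, 4.72 and 5.37 CPM in the stromal libraries and 2.75 (SE 0.56), while PECAM1 had at most 0.977 CPM and CDH5 at most 0.854 CPM.

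Of 20 proliferation genes tested, 4 were higher in epithelial and none in stromal cells, beside 11.1% and 10.9% of all genes, with a median of 0.45. The 4 were members of the MCM helicase that opens replication origins. MCM5 had 37.1, 47.5 and 37.5 CPM in the epithelial and 8.41, 14.8 and 10.7 CPM in the stromal libraries, with a log2 fold change of 1.65 (SE 0.32), MCM2 1.25 (SE 0.33), MCM3 1.26 (SE 0.31) and MCM4 1.24 (SE 0.31). Without replicate 2, 6 were called epithelial, and in the vehicle cultures none was. Without replicate 1 or replicate 3 none of the 20 was called, and the 4 lay at 1.18 to 1.55 and 1.20 to 1.72. MKI67, a mark of cycling cells, had 232, 146 and 337 CPM in the epithelial and 63.3, 105 and 145 CPM in the stromal libraries, with 0.97 (SE 0.37), and did not pass, but was called without replicate 2, at 1.29. TOP2A, a topoisomerase of dividing cells, had 101, 28.1 and 178 CPM in the epithelial and 30.6, 59.2 and 123 CPM in the stromal libraries, with 0.18 (SE 0.55), and did not pass.

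The insulin vehicle cultures, which share no library with the 5 mM glucose cultures and received the same glucose level, gave the same directions for nearly all strong differences. In that set 7408 of 13260 protein-coding genes (55.9%) were called, with a median SE of the log2 fold change of 0.170 against 0.425 at 5 mM glucose. Of 2864 genes called at 5 mM glucose and tested in both, 2665 (93.1%) were called in the same direction in the vehicle cultures, and these were 36.3% of the 7339 calls there. Of 2224 strongly separating genes tested in both, 2213 had the same sign and 2123 the same call. The Pearson r of the log2 fold changes was 0.912 across 13150 genes, which share the libraries of each experiment and are not independent. Read the other way, the 317 epithelial and 212 stromal genes chosen in the vehicle cultures were called in the same direction at 5 mM glucose in 297 (93.7%) and 209 (98.6%), against 11.1% and 10.9% of all genes. In single pairs of libraries, the direction was kept by 316 of the 317 and 212 of the 212 in replicate 1 and by all in replicates 2 and 3. With 1 CPM added to each value, the median log2 ratio of the 317 was 3.36, 5.29 and 5.00 in pairs 1, 2 and 3, and that of the 212 was -3.24, -4.34 and -4.12.

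Exactly 3 genes were called in opposite directions in the experiments, and they are named here for that reason. CPNE8, a calcium-dependent membrane-binding copine, had 16.0, 8.52 and 27.7 CPM in epithelial and 47.5, 27.0 and 76.5 CPM in stromal libraries at 5 mM glucose, against 51.1, 39.6 and 33.5 CPM and 21.8, 17.6 and 13.0 CPM in the vehicle cultures. The log2 fold change was -1.78 (SE 0.31) at 5 mM glucose and 1.18 (SE 0.11) in the vehicle cultures. CDKN2B, an inhibitor of cyclin-dependent kinases, had 2.76 (SE 0.64) at 5 mM glucose and -0.64 (SE 0.17) in the vehicle cultures, and its epithelial level at 5 mM glucose was 24.5, 115 and 13.0 CPM, highest in replicate 2. SLC5A6, a vitamin transporter, had 1.65 (SE 0.40) at 5 mM glucose and -0.64 (SE 0.18) in the vehicle cultures. At 5 mM glucose CPNE8 was not called without replicate 3, at -1.81, nor SLC5A6 without replicate 1 or 3, at 1.55 and 1.42. The test of the difference itself over 13936 genes gave no gene past an adjusted p of 0.05 in edgeR, with 1432 at an unadjusted p under 0.05. The smallest adjusted p, 0.0787, was that of CPNE8. By the DESeq2 Wald test 191 genes passed. A p that misses the threshold does not show that the experiments were alike.

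**Figure D5:**
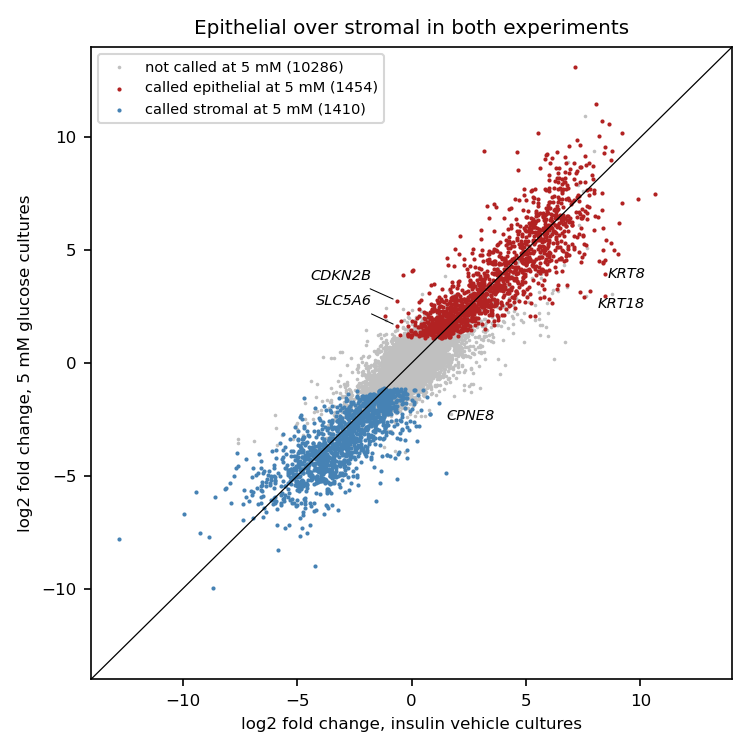
Log2 fold change of epithelial over stromal cells at 5 mM glucose against that in the insulin vehicle cultures for 13150 protein-coding genes tested in both, red and blue for genes called epithelial or stromal at 5 mM glucose and grey for the rest, with the line of equality. Called genes lie along the line, KRT8 and KRT18 lie under it at 8.20 against 4.52 and 7.78 against 3.17, and the 3 genes called in opposite directions are named.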

How the data were processed

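RNA of primary bovine endometrial epithelial and stromal cells had been sequenced from stranded libraries as 75 bp single-end reads. Per the labels and the study's methods, the authors trimmed and filtered the reads, mapped the reads by Rsubread against a cow genome of an Ensembl release that the study names, and counted them per gene with featureCounts. The versions of these tools are not given in the sources used here. The deposited values used are raw read counts per gene, 27607 genes in the table. The authors' own comparison tables, which hold fold changes and p-values, served only for identifiers, symbols and gene types.

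Counts were tested with edgeR 4.0.16 and limma 3.58.1 in R 4.3.3 (TMM scaling, filterByExpr, quasi-likelihood test, replicate number as a block after the paired design of the study). CPM was the count over the library total, of 13493503 to 16392267 counts. Intervals at 95% and floors of 3 counts cover counting error only. A symbol on 2 identifiers was left out of list counts. SE is the absolute log2 fold change over the square root of F. The difference between experiments was the cell type by experiment interaction in 1 fit over the 6 libraries and the 6 insulin vehicle libraries. The scripts were tested on simulated data. Alternatives were no block, DESeq2 size factors, no filter, the Wald test of DESeq2 1.42.0 on genes with at least 10 counts in all, all 12 glucose libraries in 1 fit, and each replicate left out.

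Genes named were the 6 markers, PGR, ESR1, KRT18 and VIM, the 12 largest log2 fold changes per direction among strongly separating genes with at least 50 CPM, and up to 4 called members per direction of each of 20 lists, with members called against the majority of a list. The rule also took the largest called differences between experiments, of which there were 0. A further 71 genes were named after their values were seen. Some genes that the rule takes are not reported here. The comparison, its lists and its members were chosen with earlier results of these data known. Promoter sequences were not analysed here.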

Additional observations from a re-analysis of the deposited data

Results flagged for a closer look

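The screen looked for genes whose pairs all went one way at 5 mM glucose and all the other way in the insulin vehicle cultures. It covered only the 199 genes that the rule or the text selects, 71 of them named after their values were seen. CPNE8, CDKN2B, SLC5A6 and BNIP3L met it. The remaining genes were not screened, and SLC36A4, BMT2 and SLC43A2 among them also reversed in all pairs. CPNE8 had a log2 fold change of -1.78 at 5 mM glucose and 1.18 in the vehicle cultures, and the test of the difference gave an unadjusted p of 5.34e-06 and an adjusted p of 0.0787 in edgeR. CDKN2B had 2.76 and -0.64, with an unadjusted p of 0.00166 and an adjusted p of 0.357 in edgeR. SLC5A6 had 1.65 and -0.64, with an unadjusted p of 0.000698 and an adjusted p of 0.357 in edgeR. BNIP3L had -0.84 and 1.67, with an unadjusted p of 1.92e-04 and an adjusted p of 0.357 in edgeR, and was not called at 5 mM glucose. Its replicate 3 libraries at 5 mM glucose were nearly equal, with 63.72 CPM in the epithelial and 63.87 CPM in the stromal library. None of the 4 differences passed the adjusted test.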

How the results depend on the processing

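Called genes (3019 in all, 1522 epithelial, 1497 stromal, 2367 strongly separating) were 2932, 1498, 1434 and 2201 in the fit without the replicate block, with 2572 of the 3019 in common. Samples of the same number correlated in their deviations at 0.080, 0.031 and 0.357, so the values alone did not show that the numbers pair the samples, and the block follows the paired design that the study states. With all 12 glucose libraries in 1 fit, 5415 genes were called, 2826 epithelial and 2589 stromal. Leaving out 1 replicate gave 2190 to 3268 called, 1111 to 1614 epithelial, 1079 to 1654 stromal and 2151 to 2711 strongly separating genes, and 0 to 3 genes past the test of the difference between experiments. By the DESeq2 Wald test that difference was called for 191 genes, against 0 in edgeR. DESeq2 size factors (3021 called) and no filter (3160) changed little, and the DESeq2 Wald test called 3889, with 2994 of the 3019 in common. No called gene changed sign under any of these alternatives. Genes that were not called in the main test and changed sign ranged, with 1 replicate left out, over -0.69 to 0.063 for PGR, -0.18 to 0.79 for HK2, -0.46 to 0.87 for TOP2A, -0.74 to 0.25 for COL18A1, -0.63 to 0.33 for AKR1B1, -0.72 to 0.11 for LAMB2, -0.42 to 0.040 for TPM1, -0.58 to 0.0038 for THBS1, -1.80 to 0.67 for PTGES, -0.21 to 3.56 for IFIT1, -0.59 to 1.13 for IFIT5 and -1.13 to 0.019 for CD14. COL18A1 was at 0.28 without the block and at 0.0076 with all 12 libraries. Of the 199 genes that the rule or the text selects, 32 lost their call without the block, among them KRT7, SCEL, CDH17, MUC20, EPCAM, ST14, DSP, ERBB3, ITGB6, CLDN7, ITGB4, MUC1, EHF, WNT7A, COL17A1, MMP7, LTF, MMP9, IGFBP3, MCM2, MCM4, IGFBP5, CDH3, FGFR1, PTGS2, C1R, CDH1, LAMA3, NLRC5, ITGA2 and PLAU, and 8, 28 and 16 lost it without replicates 1, 2 and 3. KRT5 lost its call by DESeq2, GLI1 with no filter and IGFBP5 with all 12 libraries. The cause was not tested.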

Other observations

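The following genes were put together after their values were seen, and their counts are a description. Genes that interferon induces were largely epithelial. The list includes MX2 and RSAD2, already named above for their large epithelial differences, and their epithelial calls are part of the counts below. Of 26 tested, 20 were called higher in epithelial and none in stromal cells, beside 11.1% and 10.9% of all genes, with a median log2 fold change of 4.13. MX1, an antiviral GTPase, had 904, 89.5 and 184 CPM in the epithelial and 11.9, 1.32 and 8.66 CPM in the stromal libraries, with a log2 fold change of 5.35 (SE 0.56). ISG15, a ubiquitin-like modifier, had 222, 56.3 and 53.1 CPM in the epithelial and 1.63, 0.692 and 2.07 CPM in the stromal libraries, with 5.80 (SE 0.62). IRF7, a transcription factor of the interferon response, had 205, 187 and 136 CPM in the epithelial and 23.5, 7.29 and 19.8 CPM in the stromal libraries, with 3.28 (SE 0.52). In MX1 and ISG15 the epithelial library of replicate 1 was the highest. IFIT5 did not pass, at 0.25 (SE 0.69), and IFIT1 overlapped between the groups with 329, 7.56 and 75.1 CPM in the epithelial and 11.6, 54.3 and 10.9 CPM in the stromal libraries. IFIT1 was called without replicate 2, at 3.56. In the insulin vehicle cultures 20 of 25 tested were called epithelial and none stromal, beside 55.9% of all genes called there in either direction, with a median of 3.81.

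Of 25 genes of glycolysis and of the response to low oxygen, 2 were called epithelial, 2 stromal and 21 did not pass at 5 mM glucose, beside 21.9% of all genes called in either direction, with a median of -0.099. In the vehicle cultures 18 were called epithelial and 1 stromal, beside 55.9% of all genes called, with a median of 1.21. LDHA, lactate dehydrogenase, had 316, 217 and 493 CPM in the epithelial and 274, 229 and 474 CPM in the stromal libraries, with -0.16 (SE 0.31). In the vehicle cultures LDHA had 767, 715 and 676 CPM in the epithelial and 210.3, 171 and 132 CPM in the stromal libraries, with 2.02 (SE 0.12). The difference between the experiments did not pass for LDHA (unadjusted p = 8.04e-05, adjusted p = 0.357 in edgeR). BNIP3L, a mitophagy receptor, had -0.84 (SE 0.36) and 1.67 in the vehicle cultures, a difference that did not pass either (unadjusted p = 1.92e-04, adjusted p = 0.357 in edgeR). The 2 epithelial calls were EGLN3, an oxygen-sensing hydroxylase, at 5.68 (SE 1.04), and CA9, a carbonic anhydrase induced by low oxygen, with 12.4, 169 and 106 CPM in the epithelial and 0.652, 2.39 and 3.05 CPM in the stromal libraries. CA9 was lowest in the epithelial library of replicate 1. The stromal calls were P4HA1, a collagen prolyl hydroxylase, at -2.28 (SE 0.37), and ENO2, an enolase, at -1.71 (SE 0.42). ENO2 was not called without replicate 1 or 3, at -1.66 and -1.43.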
